A study of Rattus norvegicus with 10 samples.

Results

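Interferon-induced genes were followed in the trigeminal ganglion (TG) of rats with oral ulcerative mucositis (OUM). The set held 35 rat genes that interferons are known to induce. They were listed by name from that function, with no rule on their values but with earlier results of these data known. A probe was found for 34 of them, and 31 were bright enough to be tested, of 19271 features tested in all.

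Total RNA of the TG, the ganglion that holds the cell bodies of the sensory neurons of face and mouth, was measured on 10 arrays, with 5 naive and 5 OUM model arrays. All animals were male Wistar rats of no stated genotype, and young adults by the study's methods. OUM model rats had filter paper soaked in 50% acetic acid laid for 30 s on the mucosa in front of the lower incisors under anaesthesia, and their TG was taken on day 2. Naive rats, labelled Control, were anaesthetized only. Whole ganglia of both sides were used, although the ulcer lay in the territory of 1 branch. The study's methods count n in rats and give the naive rats as age-matched.

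Interferons are secreted proteins that warn cells of infection. Type I interferons, such as those of *Ifnb1*, and the type II interferon of *Ifng* act through receptors with Janus kinases, which activate STAT factors. STAT complexes with IRF9 then bind interferon-stimulated response elements, and STAT dimers bind gamma-activated sites, which turns on genes that sense foreign RNA, block viruses, tag proteins with ISG15 and attract T cells. In sensory ganglia this response is best known from infection with herpesviruses, which lie dormant in the neurons.

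Of the 2 slides, slide 2 carried naive 4, OUM 4 and OUM 5, and slide 1 the other 4 naive and 3 OUM arrays. Signals are given as log2 of the processed signal relative to the 75th percentile of the same array, which was 2620.3 to 2948.9 signal units, and between 70.8% and 77.2% of the probes of an array were well above background. All 10 sensory neuron markers, all 6 satellite glia markers and all 7 Schwann cell markers were bright enough to be tested. Pituitary hormone genes were also measured, and their mean deviation from the 10-array mean ran from -3.37 on naive 2 to 2.92 on OUM 2. In whole tissue, fewer cells of a type and less RNA per cell cannot be told apart.

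The sequences before the transcription start of 7 members are shown to let the reader see matches to the elements named above. They were chosen from the members with the widest spread between rats or an unadjusted p under 0.05, and from *Irf7*, which was added after its values were seen. An element is written here as GAAANNGAAA, the core of the interferon-stimulated response element searched on both strands, or TTCNNNGAA, the gamma-activated site, which reads the same on both strands. Capitals mark the matches. The sequences are 160 bases up to the start, 5′ to 3′ on the strand of the gene, from RefSeq on the GRCr8 assembly.
Irf7 (chr1:205800024-205800183, minus strand): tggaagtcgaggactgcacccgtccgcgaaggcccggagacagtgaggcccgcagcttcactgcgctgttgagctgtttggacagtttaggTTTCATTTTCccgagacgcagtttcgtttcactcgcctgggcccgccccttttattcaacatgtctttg
Oas1a (chr12:41330306-41330465, plus strand): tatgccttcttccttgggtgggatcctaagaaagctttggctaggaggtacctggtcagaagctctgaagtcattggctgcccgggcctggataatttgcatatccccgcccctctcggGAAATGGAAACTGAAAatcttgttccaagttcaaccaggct
Ifit3 (chr1:241527166-241527325, plus strand): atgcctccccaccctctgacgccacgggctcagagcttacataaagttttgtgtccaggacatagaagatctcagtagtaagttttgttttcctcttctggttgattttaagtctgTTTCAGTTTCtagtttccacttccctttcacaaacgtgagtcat
Ifi44 (chr2:243303841-243304000, minus strand): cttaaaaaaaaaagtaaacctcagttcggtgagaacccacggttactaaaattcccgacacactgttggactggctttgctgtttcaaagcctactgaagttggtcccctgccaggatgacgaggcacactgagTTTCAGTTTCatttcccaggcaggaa
Rsad2 (chr6:48788121-48788280, minus strand): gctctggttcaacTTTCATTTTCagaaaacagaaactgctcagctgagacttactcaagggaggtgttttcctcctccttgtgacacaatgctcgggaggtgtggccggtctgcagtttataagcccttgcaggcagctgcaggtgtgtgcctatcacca
Ifitm3 (chr1:205541759-205541918, minus strand): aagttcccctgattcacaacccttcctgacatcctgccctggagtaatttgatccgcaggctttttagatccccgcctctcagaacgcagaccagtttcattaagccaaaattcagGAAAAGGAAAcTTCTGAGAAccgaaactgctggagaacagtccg
Irf1 (chr10:38417775-38417934, plus strand): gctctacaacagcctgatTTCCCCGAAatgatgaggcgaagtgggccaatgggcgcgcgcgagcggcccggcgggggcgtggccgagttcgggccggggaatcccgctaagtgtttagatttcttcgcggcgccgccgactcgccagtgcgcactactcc

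The stretches show that *Irf7*, *Oas1a*, *Ifit3*, *Ifi44* and *Rsad2* carry the response element core, that *Irf1* carries the gamma-activated site, and that *Ifitm3* carries both. *Oas1a* has 2 overlapping matches, at 41 and 35 bases before the start. Of the 35 members, 27 had an entry in the promoter table. The response element core lay in the 250 bases before the start of 16 of the 27, and in 3.41% of all 33469 promoters. TTCNNNGAA lay there in 8 of the 27, and in 7.67% of all promoters. Besides the genes shown, the response element core was found in *Ifih1*, *Oasl2*, *Isg20*, *Bst2*, *Parp14*, *Gbp2*, *Gbp5*, *Cxcl10*, *Ifi27* and *Xaf1*, and TTCNNNGAA in *Irf8*, *Irf9*, *Bst2*, *Parp14* and *Ifi47* and further upstream in *Oas1a*. The matches of both elements in *Bst2* overlap. A match describes the letters and does not show that a factor binds. *Dhx58*, *Mx2*, *Ifit1*, *Ifit2*, *Ifitm1*, *Isg15*, *Usp18* and *Ifi27l2b* had no entry.

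The comparison of OUM with naive rats asks whether the ganglion behind the ulcer shows an interferon response on day 2. By limma, 0 of the 31 tested members passed an adjusted p of 0.05, where 0.0104% of all features did. Adjusted p-values of the members ran from 0.519 to 0.993. At an unadjusted p under 0.05 there was 1 member higher in OUM, *Ifitm3*, where 3.92% of all features were higher, and 1 member lower, *Irf1*, where 4.91% were lower. By the methods' t-test, 0 members were higher and 1 was lower at that threshold, and 0 passed after Benjamini-Hochberg adjustment. The arrays of both groups overlapped in all 31 members, where 0.794% of all features had every OUM array above the naive arrays and 1.02% had every OUM array below them. The members' counts were near these background shares.

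The mean was higher in OUM for 20 of the 31 members (64.5%, against 45.7% of all features) and lower for 11. This share was not tested. The median difference, OUM minus naive, was 0.05 on the log2 scale over the members and -0.01 over all features. Single differences ran from -0.29 for *Rsad2* to 0.45 for *Ifi44*. The 95% intervals lay within 0.5 log2 units of 0 on both sides for 21 members and within 1 for 30, and the interval of *Ifi44* reached 1.09.

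**Figure D1:**
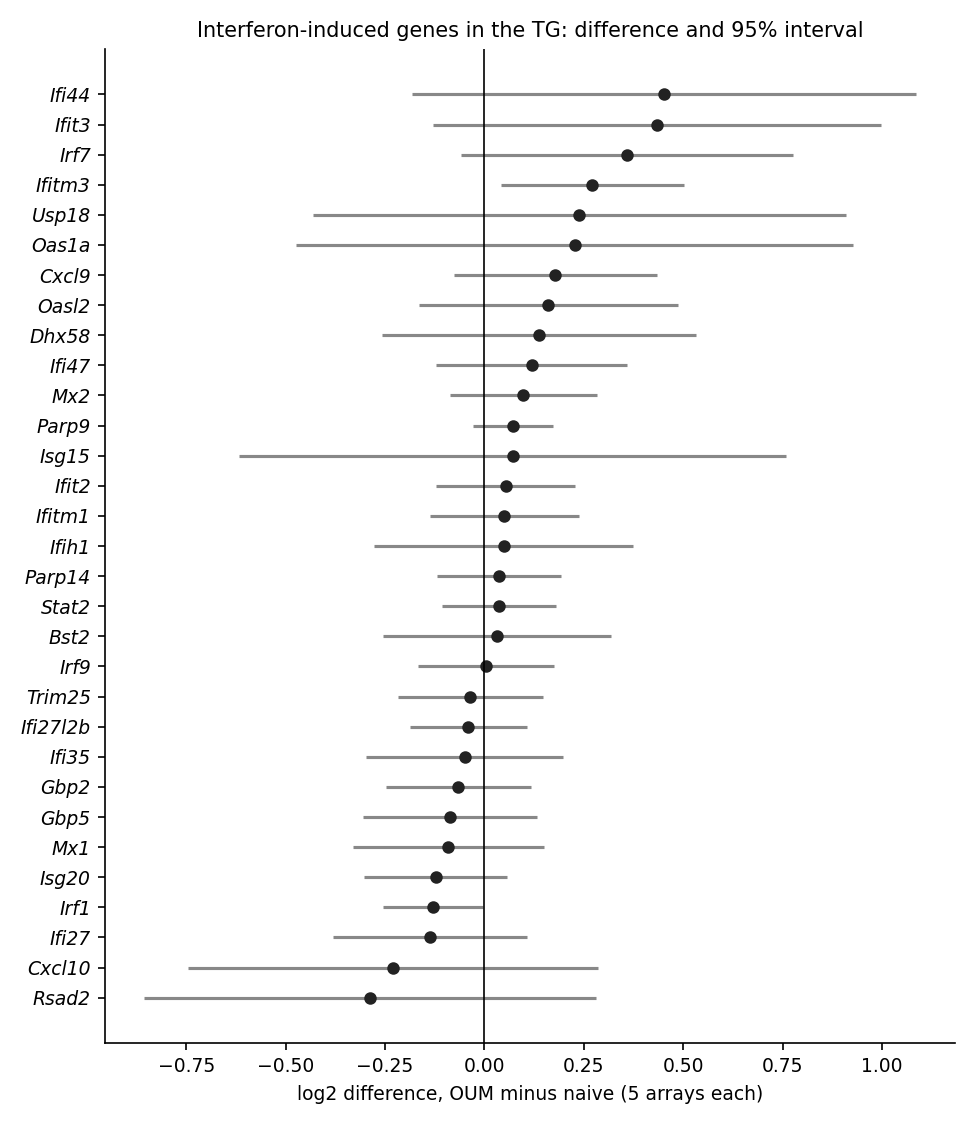
Log2 difference of the 31 tested members, OUM minus naive, with 5 arrays in each group. Points are differences of group means, bars are 95% intervals from limma, and the vertical line marks 0. Only the bars of *Ifitm3*, on the higher side, and *Irf1*, on the lower side, miss 0.

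Transcription factors of the response came first in order of action. *Irf1*, an activator that both kinds of interferon induce and whose promoter holds a gamma-activated site above, had log2 signals of -0.35, -0.53, -0.33, -0.48 and -0.29 on naive 1 to 5 and -0.52, -0.46, -0.61, -0.53 and -0.51 on OUM 1 to 5. Naive 1, 3 and 5 lay above all OUM arrays, and naive 2 and 4 lay among them. The difference was -0.13 ± 0.06 (SE, n = 5 in each group), 0.914 times the naive level, with a limma p of 0.044, an adjusted p of 0.558 and an exact permutation p of 0.0714. A second *Irf1* probe differed by -0.06, with an exact permutation p of 0.659. The limma p of *Irf1* was 0.0586 to 0.108 when naive 1, 3 or 5 or OUM 1, 3, 4 or 5 was left out, with differences between -0.13 and -0.10. Quantile normalization gave -0.12, with a limma p of 0.0708.

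*Irf7*, the factor that amplifies production of type I interferon, ran from -1.91 to -1.39 on naive arrays and from -1.70 to -0.78 on OUM arrays. Its mean differed by 0.36 ± 0.19 (SE), with a limma p of 0.085 and an exact permutation p of 0.151, and by -0.13 on slide 2 alone. The high values came from OUM 1 and OUM 3, at -0.78 and -0.82, OUM 4 lay just above the naive range at -1.34, and OUM 2 and 5 lay inside it. *Irf9* and *Stat2*, which are part of the factor that binds the response element, differed by 0.00 and 0.04. Their SDs were 0.06 each over naive arrays and 0.17 and 0.13 over OUM arrays. *Irf8*, a factor of myeloid cells, was well above background on 2 of 5 arrays of each group and was not tested.

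The cytosolic RNA sensors were both tested. *Ifih1*, which encodes the sensor MDA5, differed by 0.05 (95% interval -0.28 to 0.37). *Dhx58*, which encodes the related protein LGP2, differed by 0.14 (-0.26 to 0.53), and by -0.32 on slide 2 alone. The SD of *Dhx58* was 0.16 over naive and 0.41 over OUM arrays, with its highest values on OUM 1 and OUM 3, at -3.91 and -3.92.

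Antiviral effectors were the largest group, with 11 of 13 tested, of which 1 was higher at an unadjusted p under 0.05 and 0 were lower. That member was *Ifitm3*, a membrane protein that stops viruses from fusing with endosomes, and whose promoter carries both elements. Its log2 signals were -0.51, -0.36, -0.28, 0.11 and -0.17 on naive 1 to 5 and -0.09, 0.13, 0.03, -0.02 and 0.09 on OUM 1 to 5. All OUM arrays lay above 4 of the naive arrays, and naive 4 lay above all but OUM 2.

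The mean of *Ifitm3* differed by 0.27 ± 0.10 (SE, n = 5 in each group), a fold of 1.21, with a limma p of 0.0255, an adjusted p of 0.519 and an exact permutation p of 0.0476. With the slide as a block the difference was 0.23. On slide 1 alone it was 0.35, and on slide 2, whose only naive array is naive 4, it was -0.07. Its limma p was 0.0525 to 0.0599 without naive 1, naive 2, OUM 2 or OUM 5, and the p of the methods' t-test was 0.0571. The relative *Ifitm1* differed by 0.05 (-0.14 to 0.24).

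*Oas1a*, an oligoadenylate synthetase that activates RNase L on double-stranded RNA, had the largest spread within groups of all members. Its log2 signals were -3.99, -3.90, -3.09, -3.55 and -4.28 on naive 1 to 5 and -2.94, -3.88, -2.85, -3.65 and -4.36 on OUM 1 to 5. OUM 1, OUM 3 and naive 3 were high, and naive 5 and OUM 5 were low. The difference was 0.23 ± 0.32 (SE), with an exact permutation p of 0.516, and it ran from 0.05 without OUM 3 to 0.43 without OUM 5.

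*Ifit3*, which helps IFIT1 to bind foreign RNA caps, had log2 signals of -6.36, -5.87, -5.54, -5.36 and -6.08 on naive 1 to 5 and -4.83, -5.97, -5.11, -5.26 and -5.85 on OUM 1 to 5. OUM 1, 3 and 4 lay above all naive arrays, and OUM 2 and 5 lay inside the naive range. The difference was 0.43 ± 0.25 (SE), with an exact permutation p of 0.159. It passed an unadjusted p of 0.05 when OUM 2 was left out, at 0.58 with a limma p of 0.0445. With the normexp background correction the difference was 0.215, with a limma p of 0.0991. *Ifit3* was dim, with its mean level at percentile 8.56 of all features. Of its relatives, *Ifit2* differed by 0.05 (-0.12 to 0.23), and *Ifit1* was well above background on 0 of 10 arrays.

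*Rsad2* encodes viperin, an enzyme that makes a chain terminator of viral RNA synthesis. Its log2 signals were -1.11, -1.04, -0.97, -1.37 and -2.15 on naive 1 to 5 and -0.89, -1.71, -1.76, -1.80 and -1.93 on OUM 1 to 5. OUM 1 was above all other arrays, the other OUM arrays were below naive 1 to 4, and naive 5 was the lowest of all. The difference was -0.29 ± 0.26 (SE), with an exact permutation p of 0.325, and without naive 5 it was -0.49 with a limma p of 0.0351. The order of the arrays was thus another one than in *Oas1a*, since OUM 3 was low here.

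The other tested effectors differed by between -0.12 and 0.16. *Mx1* and *Mx2*, dynamin-like GTPases that trap viral particles, differed by -0.09 (-0.33 to 0.15) and 0.10 (-0.09 to 0.28). *Oasl2*, a relative of *Oas1a*, differed by 0.16 (-0.16 to 0.49), and its OUM arrays ran from -2.01 to -1.27. *Isg20*, an RNA exonuclease, differed by -0.12 (-0.30 to 0.06), and *Bst2*, which tethers budding viruses to the cell, by 0.03 (-0.26 to 0.32). *Oasl* was well above background on 2 of 5 arrays of each group and was not tested.

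*Isg15*, the ubiquitin-like protein that interferon-treated cells attach to other proteins, had log2 signals of -0.84, -0.69, -0.33, -0.51 and -1.25 on naive 1 to 5 and 0.17, -1.06, 0.02, -1.12 and -1.27 on OUM 1 to 5. OUM 1 and OUM 3 lay above all naive arrays, while OUM 2, 4 and 5 lay below naive 1 to 4. The difference of means was 0.07 ± 0.31 (SE), with an exact permutation p of 0.833. It changed sign when naive 5, OUM 1 or OUM 3 was left out, to -0.06, -0.13 and -0.10 (on the log2 scale), and it was 0.49 on slide 1 and -0.68 on slide 2. On slide 2, with its single naive array, 16 of the 31 members had the other sign than over all arrays, as had 33.4% of all features.

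*Usp18* encodes the protease that removes ISG15 and damps signalling at the type I receptor. Its log2 signals were -3.68, -3.67, -3.04, -3.30 and -4.04 on naive 1 to 5 and -2.57, -3.74, -2.69, -3.51 and -4.02 on OUM 1 to 5. OUM 1 and OUM 3 were again the highest arrays, and naive 5 and OUM 5 the lowest. The difference was 0.24 ± 0.30 (SE), with an exact permutation p of 0.476, and it ran from 0.05 without OUM 1 to 0.42 without OUM 5.

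A second *Usp18* probe gave -4.54, -4.41, -3.95, -4.19 and -5.02 on naive 1 to 5 and -3.68, -4.66, -3.56, -4.12 and -4.65 on OUM 1 to 5. It too was highest on OUM 1 and OUM 3 and lowest on naive 5, so the pattern over rats was not that of a single probe. Its difference was 0.29, with an exact permutation p of 0.349.

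The other regulators spread less than *Isg15* and *Usp18*. *Trim25*, a ubiquitin ligase that activates the RNA sensor RIG-I, differed by -0.04 (-0.22 to 0.15). *Parp9* and *Parp14*, which act in ADP-ribosylation, differed by 0.07 (-0.03 to 0.17) and 0.04 (-0.12 to 0.19). A dimmer second *Parp14* probe differed by -0.11, with an exact permutation p of 0.532. Its SDs were 0.27 over naive and 0.30 over OUM arrays, against 0.08 and 0.14 for the probe used. *Parp9* had the smallest pooled SD of all 31 members, 0.058.

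The interferon-induced GTPases, which attack vacuoles that hold microbes, had differences near 0: -0.07 for *Gbp2*, -0.09 for *Gbp5* and 0.12 for *Ifi47*. A dimmer second *Gbp5* probe differed by 0.16, with an exact permutation p of 0.46. It was well above background on only 3 of 5 naive and 4 of 5 OUM arrays, so it would not pass the filter. The chemokines draw activated T cells. *Cxcl9* differed by 0.18 (-0.08 to 0.43) and *Cxcl10* by -0.23 (-0.75 to 0.29), with exact permutation p-values of 0.183 and 0.389.

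*Ifi44* encodes a cytoplasmic protein with antiviral activity. Its log2 signals were -0.54, -1.42, -1.27, 0.04 and -0.21 on naive 1 to 5 and 0.10, -0.20, 0.04, -0.47 and -0.61 on OUM 1 to 5. Naive 2 and 3 were far below all other arrays, and naive 4 lay with the highest OUM arrays. The difference was 0.45 ± 0.29 (SE), the largest among the members, with an exact permutation p of 0.198. On slide 1 it was 0.84 with a limma p of 0.0246, and on slide 2, where naive 4 is the only naive array, it was -0.58. Without naive 4 it was 0.63 with a limma p of 0.0401.

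The remaining members were *Ifi27* and *Ifi27l2b*, small hydrophobic proteins of mitochondria, and *Ifi35*, a partner of NMI. They differed by -0.14 (-0.38 to 0.11), -0.04 (-0.19 to 0.11) and -0.05 (-0.30 to 0.20). A dimmer second *Ifi27l2b* probe differed by -0.12, with an exact permutation p of 0.175. No probe was matched to *Xaf1*.

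**Figure D2:**
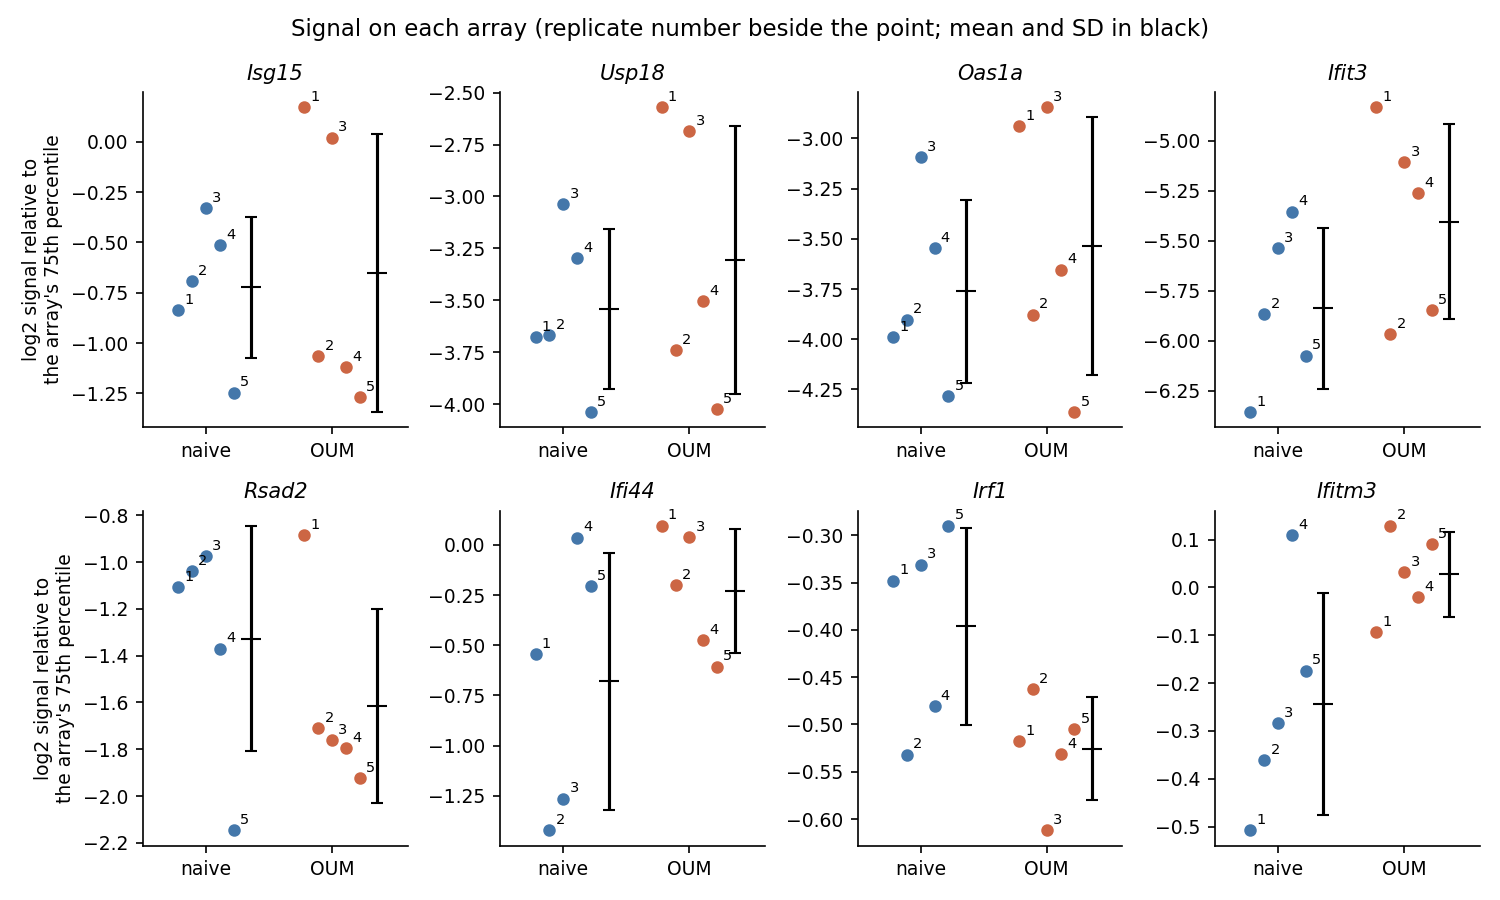
Log2 signal relative to the 75th percentile of the array for 8 members on each of 5 naive (blue) and 5 OUM (orange) arrays, with replicate numbers beside the points and group means with SD in black. In *Isg15*, *Usp18* and *Oas1a*, OUM 1 and OUM 3 are highest and OUM 5 lowest among the OUM arrays. Among the OUM arrays *Rsad2* is high on OUM 1 alone, and naive 1 to 4 lie above the other OUM arrays. *Ifi44* is lowest on naive 2 and 3.

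The spread between rats of a group was therefore described beside the differences. Ranked by SD within groups over all 19271 features, *Oas1a* stood at percentile 97.6, *Isg15* at 97.5, *Usp18* at 97.4, *Ifi44* at 96.9, *Rsad2* at 95.8, *Ifit3* at 95.7, *Cxcl10* at 94.5 and *Irf7* at 90.2. These 8 of 31 members (25.8%) lay in the top 10% of all features. The median percentile of the members was 70.1. The ranking was not adjusted for signal level. By mean level, *Ifit3* stood at percentile 8.6, *Oas1a* at 28.2, *Usp18* at 30.5 and *Cxcl10* at 38.7. *Rsad2* stood at 52.0, *Irf7* at 52.5, *Isg15* at 61.0 and *Ifi44* at 63.5. Whether level had a part in the SD ranks was not tested. The SD was larger over OUM than over naive arrays for 23 of 31 members (74.2%), against 63.6% of all features. It was at least 2 times larger in OUM for 9 members, where 17.3% of all features had this, and at least 2 times larger in naive rats for 2 members, where 7.55% had this.

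**Figure D3:**
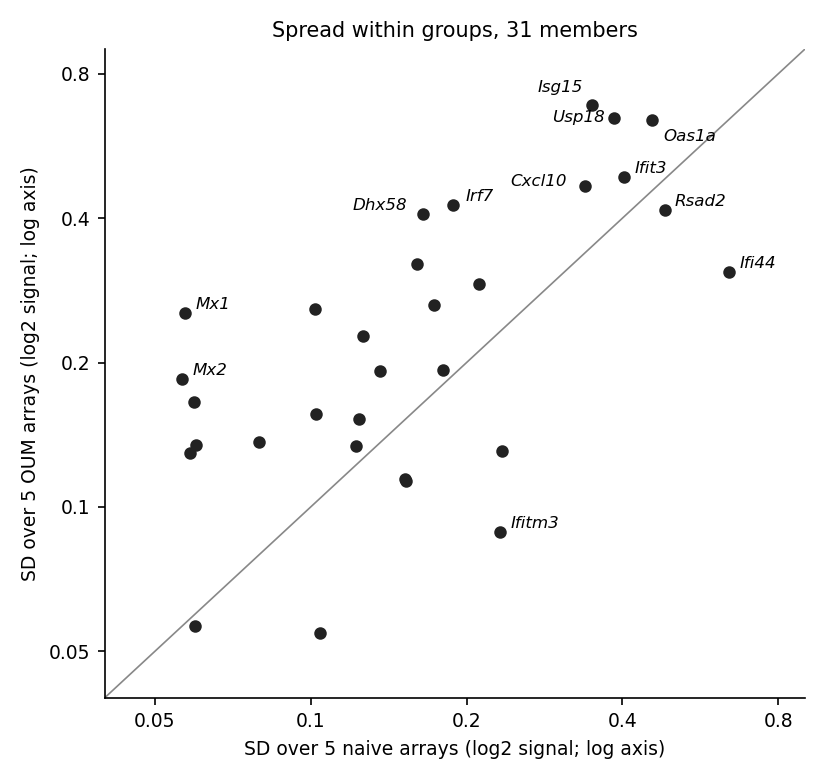
SD of log2 signal over the 5 naive arrays and over the 5 OUM arrays for the 31 tested members, on log axes with the line of equal SDs. *Isg15*, *Usp18* and *Oas1a* have large SDs in both groups, *Mx1*, *Mx2*, *Irf7* and *Dhx58* have larger SDs in OUM, and *Ifi44* and *Ifitm3* have larger SDs in naive rats.

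The arrays on which members were high were largely shared between them. On OUM 1, 26 of 31 members were above their own median over the 10 arrays (83.9%, against 47.5% of all features), and on OUM 3, 25 were (80.6%, against 41.6%). On OUM 5 only 5 were (16.1%, against 55.8%), and on naive 5 only 9 (29.0%, against 58.5%). OUM 1 was the highest of all arrays for 16 members, where it was for 13.7% of all features, and OUM 5 the lowest for 12, where it was for 8.79%.

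The mean deviation of the 31 members from their 10-array means was -0.08, -0.04, 0.09, 0.03 and -0.14 on naive 1 to 5 and 0.27, -0.09, 0.16, 0.01 and -0.20 on OUM 1 to 5. The OUM arrays thus held both the highest and the lowest mean, and the naive arrays lay between them. The group means were -0.03 ± 0.09 (SD) and 0.03 ± 0.19 (SD). Without the 6 members of largest SD the range was -0.07 to 0.06 over naive and -0.14 to 0.16 over OUM arrays, with OUM 1 highest and OUM 5 lowest.

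**Figure D4:**
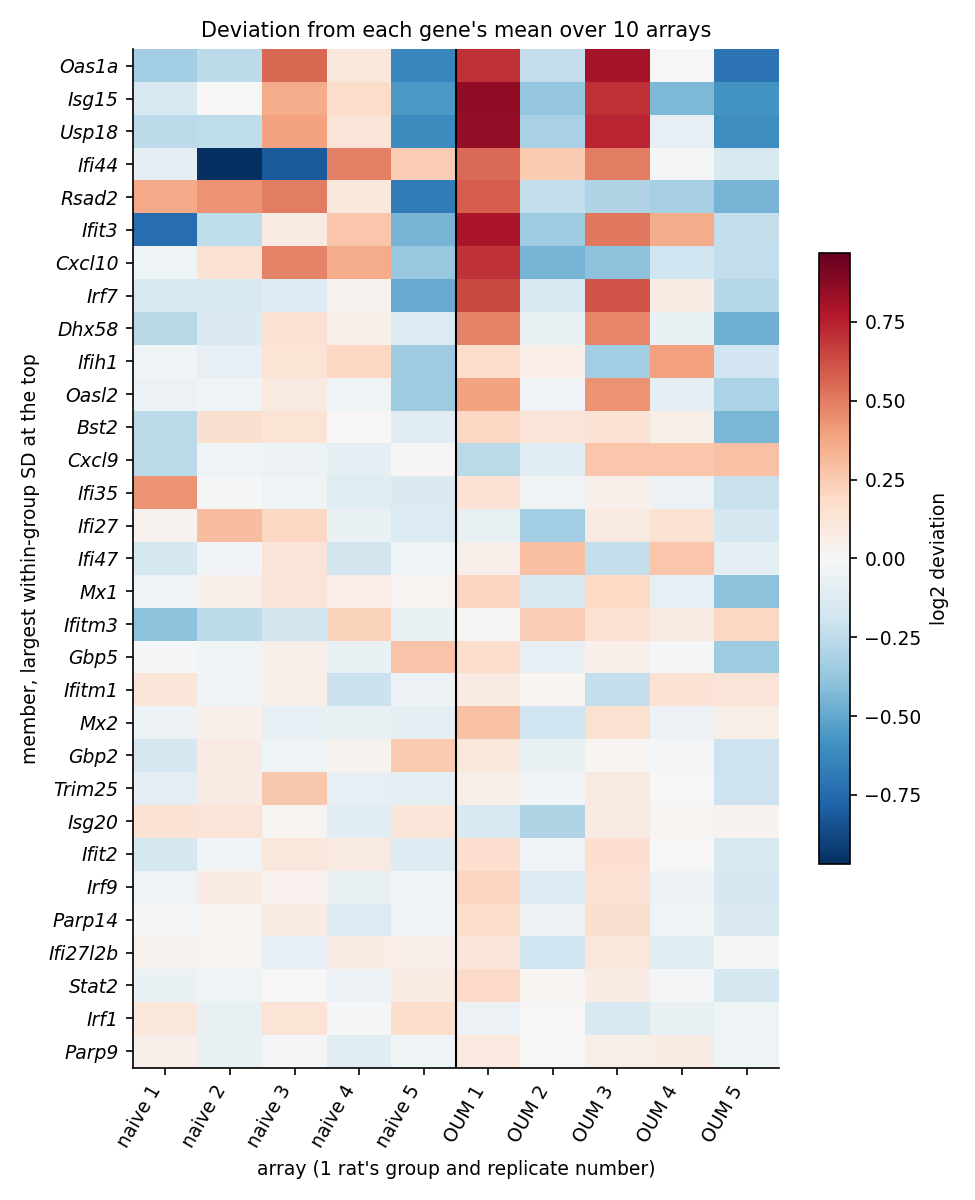
Log2 deviation of each of the 31 tested members (rows, largest within-group SD at the top) from its mean over the 10 arrays (columns, with a line between naive and OUM). The columns of OUM 1 and OUM 3 are mostly red (higher) and those of naive 5 and OUM 5 mostly blue (lower), with exceptions on 1 or more of these arrays such as *Ifi44*, *Rsad2*, *Cxcl10*, *Ifih1* and *Irf1*.

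Markers of cells that carry or answer interferon were read on the same arrays. All 12 macrophage markers were tested, and their mean deviation was -0.10 to 0.05 over naive and -0.09 to 0.15 over OUM arrays. On OUM 1, where the members were highest, it was -0.09, and on OUM 3 it was 0.01. Of 12 T and NK cell markers, 5 were tested, while *Cd3e*, *Cd2* and *Klrd1* were well above background on 0 of 10 arrays. Their mean was -0.14 on OUM 1 and -0.205 on OUM 3, and it ran from -0.205 to 0.195 over OUM and from -0.03 to 0.12 over naive arrays.

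The means of the macrophage and the T and NK cell lists thus lay below 0 on OUM 1, as that of T and NK cells did on OUM 3. Single markers did not all follow. *Itgam*, at -3.66 on OUM 1, lay above its naive and OUM means of -4.08 and -3.83. Of other lists, sensory neuron markers had their highest mean, 0.16, on OUM 1, whose pituitary mean was 2.52. Fibroblast and meninges markers and satellite glia markers had their lowest means there, -0.31 and -0.155. So had the B and plasma cell list, at -0.904, with 1 gene tested. Naive 1 and OUM 2 had pituitary means of 2.45 and 2.92 with member means of -0.08 and -0.09. Their part in the spread of the members was not tested.

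Other genes that interferons induce, a list of 52 that are no members, gave 36 tested genes. Of these, 4 were higher and 0 were lower at an unadjusted p under 0.05, where 3.92% and 4.91% of all features were, and 0 passed the adjusted threshold by limma. They were *Psmb8*, *Psmb9*, *Tap1* and *Adar*. The first 3 serve peptide loading of MHC class I, *Psmb8* and *Psmb9* as subunits of the immunoproteasome and *Tap1* as peptide transporter, and *Adar* edits double-stranded RNA.

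*Psmb8* had log2 signals of -2.66, -2.81, -2.56, -2.76 and -2.98 on naive 1 to 5 and -2.48, -2.31, -2.23, -2.36 and -2.52 on OUM 1 to 5. The groups did not overlap, which no member showed. The difference was 0.37 ± 0.09 (SE), with a limma p of 0.00141, an adjusted p of 0.336 and an exact permutation p of 0.00794, the smallest that 10 arrays allow, and it was 0.41 on slide 1 and 0.32 on slide 2. The differences of *Tap1*, *Psmb9* and *Adar* were 0.35, 0.21 and 0.22, with exact permutation p-values of 0.0714, 0.0397 and 0.0556, and that of *Adar* was -0.03 on slide 2. With normexp their limma p-values were 0.065, 0.0789 and 0.0859, by the methods' t-test the p-values were 0.0691, 0.0603 and 0.0564, and the limma p also rose above 0.05 without each of 6, 6 and 5 single arrays.

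The mean deviation of the 36 genes was -0.10 to 0.02 over naive and -0.10 to 0.09 over OUM arrays. It was 0.08 on OUM 1, 0.09 on OUM 3, -0.10 on naive 5 and -0.10 on OUM 5, so these arrays deviated the same way as for the members, by less. Other arrays did not follow the members: naive 1 stood at 0.02 here and at -0.08 in the members, naive 3 at -0.01 and 0.09, and OUM 4 at 0.08 and 0.01.

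The list of interferon pathway genes held 39 genes, of which 21 were tested. By limma, 4 were higher and 0 were lower at an unadjusted p under 0.05, where 3.92% and 4.91% of all features were, and 0 passed the adjusted threshold. Of the 4, *Tlr7* passed the filter only through the OUM arrays, so its call is not read as a test. Among ligands, *Ifnb1*, *Ifnk* and *Ifng* were well above background on 0 of 10 arrays, and *Ifna2* on 3 naive and 0 OUM arrays. *Ifna4* was tested and differed by -0.01 (-0.36 to 0.33). Its signal split by slide, from -3.44 to -3.14 on slide 1 and from -2.86 to -2.74 on slide 2. *Ifna1*, *Ifne*, *Ifnl1* and *Ifnl3* had no matched probe.

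Among receptors, *Ifngr1*, the ligand-binding chain for the type II interferon, ran from 1.07 to 1.25 over naive and from 1.21 to 1.36 over OUM arrays. Only naive 3 lay inside the OUM range. The difference was 0.13 ± 0.05 (SE), with a limma p of 0.0298, an adjusted p of 0.524 and an exact permutation p of 0.0238. The limma p was 0.0538 with normexp, 0.0669 on slide 1 alone, and 0.0517 to 0.0748 without naive 1, naive 5, OUM 2 or OUM 5, with differences of 0.10 to 0.12. Its partner chain *Ifngr2* differed by -0.01, the type I receptor chain *Ifnar1* by 0.01 and *Il10rb*, shared with the type III receptor, by -0.05. *Ifnlr1* was well above background on 0 of 10 arrays, and *Ifnar2* had no matched probe.

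The kinases *Jak1* and *Jak2* differed by -0.09 (-0.23 to 0.05) and -0.06 (-0.17 to 0.05). *Tyk2* had no matched probe. Of sensors, adaptors and inhibitors, *Irf2bp1* and *Myd88*, the adaptor of most Toll-like receptors, were higher at an unadjusted p under 0.05. *Tlr7*, an endosomal receptor for single-stranded RNA, was well above background on 2 of 5 naive and 5 of 5 OUM arrays and ran from -8.13 to -7.00 and from -6.91 to -6.56.

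Since it passed the filter only through the group in which it was high, its difference is given with no test, as 0.57, and as 0.09 with the normexp background correction. *Irf2bp1*, a corepressor partner of IRF2, differed by 0.20 with a limma adjusted p of 0.504 and an exact permutation p of 0.0317. Its difference was 0.14 with normexp, with a limma p of 0.163, and 0.00 on slide 2 alone. *Irf2* itself was well above background on 0 of 10 arrays. *Myd88* differed by 0.12, with an exact permutation p of 0.0556.

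**Figure D5:**
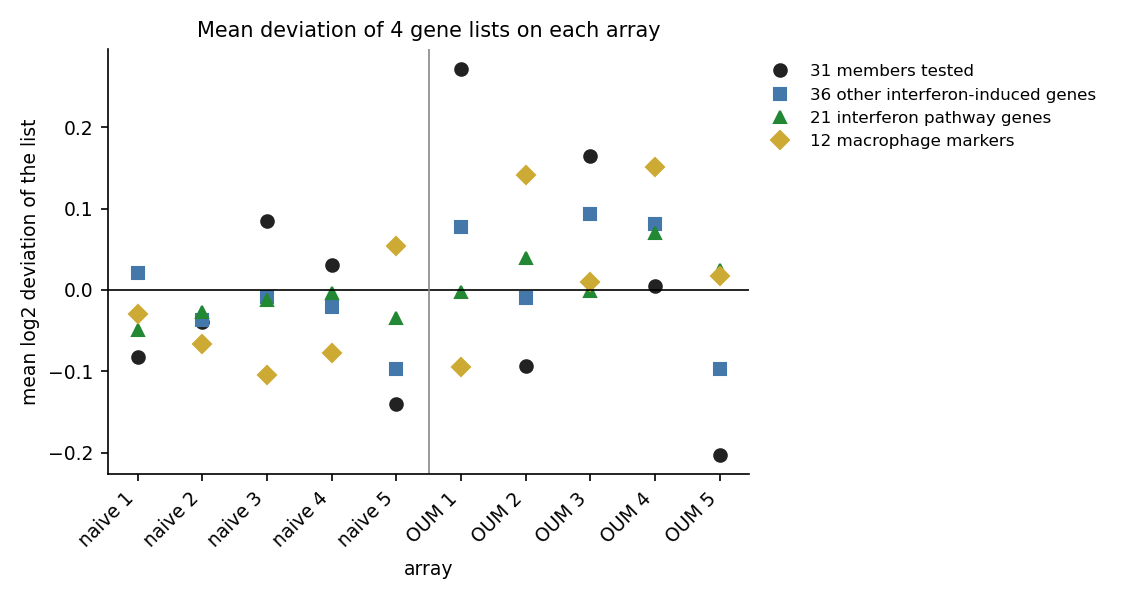
Mean log2 deviation from the 10-array mean for the 31 tested members, 36 other interferon-induced genes, 21 interferon pathway genes and 12 macrophage markers on each array, with a line between naive and OUM. The members reach 0.27 on OUM 1 and -0.20 on OUM 5, while the pathway genes stay between -0.05 and 0.07.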

How the data were processed

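The authors hybridised Cy3-labelled TG RNA of 10 rats to 1-colour Agilent arrays and read them with Agilent Feature Extraction 10.7.1.1 (per the labels). The deposited intensity is the processed signal after background subtraction. Their value table, an intensity divided by a constant per array on a linear scale, served as an alternative. Control and outlier spots were left out, spots of a probe were averaged on log2, and each array's 75th percentile was subtracted. Accessions were matched to RefSeq symbols for 18438 of 30367 probes, and the brightest probe stood for a gene. A feature entered the test when the 5 arrays of either group had it well above background. Tests used limma 3.58.1 in R 4.3.3, two-sided, adjusted by Benjamini-Hochberg over 19271 features. Single genes were also compared by the two-sided exact permutation test over 252 assignments, whose smallest p is 0.00794.

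Members and lists were chosen with earlier results of these data known. Values on each array are given for members with an unadjusted p under 0.05 and for the 6 with the largest SD within groups. Of other lists, ligands, receptors, kinases and STATs are named, except 1 gene that is not reported here, and at most 6 further genes with an unadjusted p under 0.05 are given with values. Depth is not defined for arrays, and their number limits the precision. The study's methods count n in rats. The limma step was tested on simulated data. Alternatives covered normalization, background (normexp with offset 50 on the median spot signal), filters, probes, outlier spots, slide, replicate number, the methods' t-test, a trend with robust prior, the authors' table and leaving out each array. Leaving out the 6 members of largest SD was added after seeing the data.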

Additional observations from a re-analysis of the deposited data

Results flagged for a closer look

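In 62 groups of 5 arrays, the gap of the most distant array to its neighbour was set against the range of the group. In 4 groups, each of another member, the ratio passed the 95% limit of 0.71 that Dixon's criterion gives. Chance gives about 1 in 20 groups, so 4 of 62 is near the count that chance gives. The groups share arrays, and the share over all features was not computed. *Rsad2* stood apart on OUM 1, the highest of its group at -0.89, with a ratio of 0.795. *Cxcl10* stood apart on the same array, at -1.95 against -3.09 to -2.83 on the other OUM arrays, with a ratio of 0.774. *Bst2* was low on OUM 5, at -1.33 against -0.83 to -0.68, with a ratio of 0.77. *Ifi35* was high on naive 1, at -1.38 against -1.95 to -1.82, with a ratio of 0.773.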

How the results depend on the processing

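Slide 2 alone sets 1 naive against 2 OUM arrays, so its fit assumes that the lone naive array varies like the OUM arrays, and its counts carry little weight. The count of members past the adjusted threshold was 0 under every alternative run. The count over all features, 2, was 0 with quantile normalization, median centring, no filter, the mean of probes, the replicate block, the methods' t-test and the authors' table, 1 with the trend and robust prior, 118 on slide 2 alone, and 0 to 1 without 1 array. Members higher, 1, were 5 on slide 1 alone, 2 on slide 2 alone, 2 with the replicate block, 0 by the methods' t-test and 0 to 2 without 1 array. Members lower, 1, were 0 with quantile normalization, median centring, normexp, the mean of probes, the slide block, the replicate block and the authors' table, 4 on slide 2 alone, and 0 to 1 without 1 array. Both counts, of members higher and of members lower, are at an unadjusted p under 0.05. Under the alternatives, the share of all features past that threshold was not computed. A change in either count, such as the 5 on slide 1 alone, therefore has no background to be judged by. Whether it is particular to the members was not tested. The median difference, 0.05, was -0.11 on slide 2 alone and 0.00 to 0.09 without 1 array. The range of the arrays' mean deviations, 0.475, was 0.234 on slide 2 alone, 0.306 without the 6 members of largest SD, and 0.367 to 0.475 without 1 array. On slide 2 alone the sign turned for 16 of 31 members and 33.4% of all features, among the genes followed here for *Ifit3* (-0.20), *Oas1a* (-0.46), *Ifitm3* (-0.0746), *Isg15* (-0.68), *Usp18* (-0.47), *Ifi44* (-0.58), *Irf2bp1* (-0.0013) and *Adar* (-0.0299). *Isg15*, at -0.135 to 0.226 without 1 array, also turned without naive 5 (-0.06), OUM 1 (-0.135) and OUM 3 (-0.10). The cause was not tested. The replicate block gave an unadjusted p of 0.0877 for *Ifngr1*, 0.063 for *Adar* and 0.0588 for *Psmb9* (limma). Deviations of same-numbered arrays correlated by -0.09 to 0.34, with 2 pairs over 0.1. Arrays of different numbers were not compared, so whether replicate numbers pair the arrays was not tested. Signal over background kept *Irf8*, *Oasl* and *Ifit1* from being tested.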
